A study of Mus musculus with 3 samples.

Results

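Levels of 4 genes known in the mouse by RIKEN clone names were followed here: A930015D03Rik, 2410006H16Rik, 5430416N02Rik and 0610030E20Rik. They were chosen by symbol, and the symbols had been selected on the high ratio of their levels in cycloheximide-treated over control cells, in CPM (UMI counts scaled to the same total in each library). They are 4 of the 32285 genes counted. Their ratios to the control therefore describe how they were chosen and were not tested. The list carried the name of noncoding transcripts, and the annotation holds this for 3 of them only. GENCODE M21 classes A930015D03Rik as antisense, 2410006H16Rik as processed_transcript and 5430416N02Rik as lincRNA, and RefSeq classes these 3 as lncRNA. Both annotations class 0610030E20Rik as protein_coding, so the 4 are called RIKEN-named genes here.

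The cells were E14, a line of embryonic stem cells from 129/Ola mice that was kept on gelatin with serum and leukemia inhibitory factor. Treatment began 24 h after seeding. One culture received 250 µg/mL cycloheximide for 3 h, 1 received the same dose for 6 h, and the control received only the ethanol vehicle for 6 h. The vehicle was 0.007% ethanol, and no 3 h vehicle library was used here. All cells were trypsinised, frozen and thawed before single-cell barcoding with 10x Genomics 3' v3 chemistry, which primes on poly(A) tails and counts each molecule once by its unique molecular identifier (UMI). There was 1 library per group, so no difference below has a replicate check, and every interval covers counting error only.

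Cycloheximide stops ribosomes during elongation. Several routes of RNA decay need translation, among them nonsense-mediated decay (NMD), in which a ribosome that stops upstream of an exon junction marks the RNA for destruction. Some spliced RNAs with short reading frames are known targets, and the best studied are host genes of small nucleolar RNAs (snoRNAs), whose introns release a snoRNA while the spliced exons are degraded in the cytoplasm. A block of translation is known to raise the spliced RNA of such hosts.

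The annotation places 3 snoRNA genes inside 2410006H16Rik, which is the only 1 of the 4 that holds any. This gene lies on the plus strand of chromosome 11 at chr11:62602877-62604807 (GRCm38), and its human counterpart is known as SNHG29. Its transcript has 5 exons that add up to 462 bases. Each snoRNA is 72 bases long, guides 2'-O-methylation of other RNAs, and sits in an intron on the host's own strand. They are shown because they set this gene apart from the others; capitals mark the box C letters TGATGA and the box D letters CTGA, the short elements that define this snoRNA class. Snord49b lies in intron 1 at chr11:62603079-62603150, Snord49a in intron 2 at chr11:62603450-62603521 and Snord65 in intron 4 at chr11:62604515-62604586.
Snord49b: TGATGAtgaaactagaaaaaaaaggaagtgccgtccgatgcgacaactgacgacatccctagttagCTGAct
Snord49a: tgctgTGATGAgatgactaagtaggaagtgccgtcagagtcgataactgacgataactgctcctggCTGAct
Snord65: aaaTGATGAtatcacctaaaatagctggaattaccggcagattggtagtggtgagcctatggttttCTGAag
The snoRNAs end 84, 75 and 68 bases before the next exon, in the same order. Mature snoRNAs are known to carry no poly(A) tail, which this assay needs.

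A930015D03Rik spans chr17:35994453-36038435 on the plus strand. Its transcript has 2 exons of 108 and 1003 bases, separated by an intron of 42872 bases. All 1003 bases of exon 2 lie within exons of H2-T22, a class I histocompatibility gene of the minus strand, so exon 1 is the stretch shared with no other annotated exon. It is shown for that reason, from chr17:35994453-35994560, and capitals mark the ATG that opens the longest reading frame of the transcript.
A930015D03Rik exon 1: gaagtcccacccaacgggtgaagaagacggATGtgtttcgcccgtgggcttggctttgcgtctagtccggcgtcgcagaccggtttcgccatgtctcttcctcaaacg
That frame has 119 codons and ends in the last exon.

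5430416N02Rik lies on the minus strand at chr5:100420842-100429535, has 4 annotated transcripts of 435 to 3486 bases, and carries the synonym Adapt33 in RefSeq. The 5-exon form has 626 bases. 0610030E20Rik spans chr6:72347317-72353148 on the plus strand, with 1 coding transcript of 4605 bases and 3 forms classed as retained_intron. The longest reading frame of the coding form has 166 codons. Its protein has no role stated in the sources used here.

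Promoter sequence from RefSeq (GRCm38.p6) was at hand for 3 of the 4 genes, and it is shown for the pair with nearly equal ratios below, 2410006H16Rik and 5430416N02Rik. Each window runs from 250 bases before to 50 bases after the annotated start, and covers chr11:62602627-62602926 on the plus strand and chr5:100429486-100429785 on the minus strand. Capitals mark every match, on either strand, to CCAAT (a core known for NF-Y), to GGGCGG (SP factors) and to CCGGAAG (ETS factors).
2410006H16Rik promoter: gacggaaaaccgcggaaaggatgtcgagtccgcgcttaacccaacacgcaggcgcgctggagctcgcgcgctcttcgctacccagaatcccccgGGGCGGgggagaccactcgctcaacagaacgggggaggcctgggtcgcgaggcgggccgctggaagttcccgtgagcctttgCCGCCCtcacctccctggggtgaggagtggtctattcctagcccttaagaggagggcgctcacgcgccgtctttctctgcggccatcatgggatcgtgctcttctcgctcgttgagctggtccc
5430416N02Rik promoter: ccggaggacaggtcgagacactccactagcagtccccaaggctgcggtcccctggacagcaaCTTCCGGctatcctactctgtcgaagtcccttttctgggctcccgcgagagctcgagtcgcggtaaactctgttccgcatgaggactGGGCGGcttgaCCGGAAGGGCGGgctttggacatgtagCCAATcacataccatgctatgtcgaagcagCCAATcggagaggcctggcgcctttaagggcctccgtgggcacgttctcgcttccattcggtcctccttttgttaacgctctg
The 5430416N02Rik window held 2 matches to each of the 3 motifs, with a GGGCGG match overlapping the end of a CCGGAAG match. The 2410006H16Rik window held 2 GGGCGG matches and none of the others. The 0610030E20Rik window held 2 CCGGAAG matches, 1 of them downstream of the start. Among 32851 RefSeq promoters of this length, 37.4% held CCAAT, 35.7% held GGGCGG and 8.86% held CCGGAAG. A match to TATAA, found in 24.9%, was in none of the 3 windows. These matches describe letters and show no binding.

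Since the assay reads the 3' end, the last 40 bases of 1 transcript of each of the 3 noncoding genes are shown, with the polyadenylation letters AATAAA or ATTAAA in capitals.
2410006H16Rik 3' end: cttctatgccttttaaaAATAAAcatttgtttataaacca
5430416N02Rik 3' end, 5-exon form: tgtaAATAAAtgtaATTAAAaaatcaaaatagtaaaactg
A930015D03Rik 3' end: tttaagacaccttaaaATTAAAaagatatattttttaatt
2410006H16Rik and this form of 5430416N02Rik carried AATAAA, and A930015D03Rik carried ATTAAA only. Of the other 3 forms of 5430416N02Rik, 1 carried AATAAA and 2 carried neither. Of 14986 transcripts of lincRNA, antisense and processed_transcript genes, 30.3% had AATAAA within 40 bases of their end.

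Reading frames were compared by where they stop. In 2410006H16Rik the first ATG opens 44 codons that stop 161 bases before the last exon junction, while its longest frame of 53 codons stops 93 bases after it. In the 5-exon form of 5430416N02Rik the first frame of 32 codons stops 341 bases before the last junction and the longest, of 39 codons, stops 169 bases before it. In its other 3 forms the longest frame stops 3057, 270 and 116 bases past the last junction, and the first frame stops 198, 21 and 56 bases before it. The single frame measured in A930015D03Rik, both its first and its longest, stops 282 bases past the junction. In the coding form of 0610030E20Rik the longest frame stops 123 bases past the last junction, and the first ATG opens 7 codons that stop 426 bases before it. In its 2-exon retained_intron form the longest frame stops 150 bases before the junction and the first frame 351 bases before it. In its 3-exon retained_intron form the longest frame stops 764 bases past the last junction and the first frame 302 bases before it. The remaining form has 1 exon and no junction. A stop more than 50 bases before the last junction is the layout that NMD is known to read. It is common by sequence alone: among 13979 spliced transcripts of lincRNA, antisense and processed_transcript genes 72.9% have it for the first ATG and 24.7% for the longest frame.

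Barcodes were kept if they held at least 15000 UMIs and 1 to 20% mitochondrial UMIs. This left 2187 control, 1739 3 h and 2554 6 h barcodes. Their median depths were 43160, 51726 and 46200 UMIs. Summed UMIs were 111447486, 106842407 and 140321458. The libraries shared 1 to 3 kept barcode sequences pairwise. All 10 markers of embryonic stem cells were at 10 CPM or more in mean, with summed levels of 7253, 8268 and 7407 CPM. Dppa5a alone gave 4771, 5327 and 5475 CPM of these sums. Single markers of the 10 had 6 h log2 ratios to the control from -0.925 (Zfp42) to 1.28 (Fbxo15). Of the marker genes of fibroblasts, primitive endoderm, trophoblast, 2-cell-like cells, germ layers, red cells and immune cells, 0 reached 10 mean CPM. Their summed levels per list ran from 0.00713 to 19.2 CPM. Mitochondrial transcripts took 4.57%, 3.51% and 2.94% of the UMIs in the control, 3 h and 6 h libraries. Its part in the ratios below was not tested.

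The antisense gene A930015D03Rik had 517 control UMIs, and the 3 h and 6 h libraries had 6301 and 17913. The control level was 4.64 CPM (95% interval 4.25 to 5.06). After 3 h it was 59.0 CPM (57.5 to 60.5), and after 6 h 128 CPM (126 to 130). The 3 libraries stood in a clear order with no overlap of their counting intervals. The level was 12.7-fold the control at 3 h and 27.5-fold at 6 h, or 3.67 and 4.78 on the log2 scale. The 6 h level was 2.16-fold that of 3 h, a log2 difference of 1.11 (1.07 to 1.16).

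The snoRNA host 2410006H16Rik had 8321, 96246 and 188377 UMIs in the control, 3 h and 6 h libraries. These are levels of 74.7 CPM (73.1 to 76.3), 901 CPM (895 to 906) and 1342 CPM (1336 to 1349). Both treated libraries were far above the control, and most of the distance was covered by 3 h. The ratio to the control was 12.1-fold at 3 h and 18.0-fold at 6 h, or 3.59 and 4.17 in log2. Between the treated libraries it was 1.49-fold, a log2 difference of 0.58 (0.56 to 0.59).

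The lincRNA gene 5430416N02Rik had 1994, 20297 and 39752 UMIs in the same order. Its levels were 17.9 CPM (17.1 to 18.7), 190.0 CPM (187 to 193) and 283 CPM (280.5 to 286). The order of the libraries was that of 2410006H16Rik, again without overlap. The ratio to the control was 10.6-fold at 3 h and 15.8-fold at 6 h, or 3.41 and 3.98 in log2, and the 6 h level was 1.49-fold that of 3 h.

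The protein-coding gene 0610030E20Rik had 684 control UMIs, 1370 after 3 h and 2369 after 6 h. Its levels were 6.14 CPM (5.69 to 6.62), 12.8 CPM (12.2 to 13.5) and 16.9 CPM (16.2 to 17.6). It followed the same order of libraries with much smaller steps. The ratio was 2.09-fold at 3 h and 2.75-fold at 6 h, or 1.06 (0.93 to 1.20) and 1.46 (1.34 to 1.58) in log2. From 3 h to 6 h it was 1.32-fold.

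**Figure D1:**
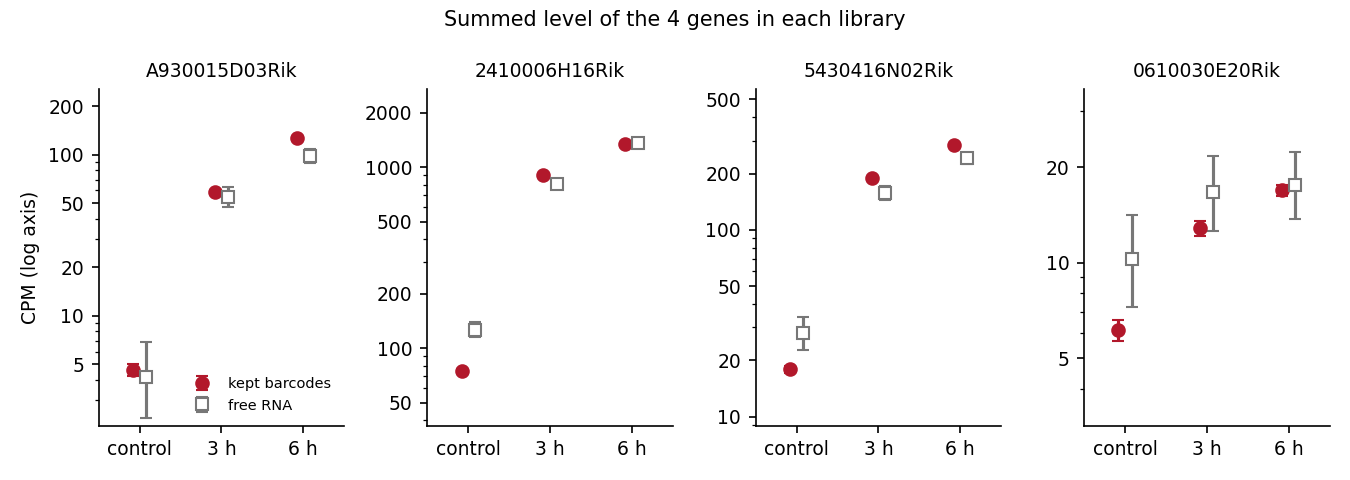
Summed level of each gene in CPM (log axis) in the control, 3 h and 6 h libraries; filled circles are kept barcodes, open squares are free RNA from barcodes of 10 to 100 UMIs, and bars are exact Poisson 95% intervals. A930015D03Rik goes from 4.64 to 128 CPM in kept barcodes and 0610030E20Rik from 6.14 to 16.9 CPM. The free RNA follows the same order of libraries, with overlapping intervals for 0610030E20Rik.

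All 4 genes averaged 10 CPM or more across the libraries, as did 7608 genes in all. A930015D03Rik and 0610030E20Rik were under 10 CPM in the control and passed through the treated libraries, so their ratios had to be high. All 4 were at least 2-fold above the control at 3 h, beside 4.32% of the 7608 genes, and all 4 at 6 h, beside 8.65%. Nothing can be read from these counts, as the genes had been chosen for their ratios. By size of the ratio A930015D03Rik, 2410006H16Rik, 5430416N02Rik and 0610030E20Rik took places 4, 5, 9 and 281 at 3 h and places 4, 6, 9 and 250 at 6 h.

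Between 6 h and 3 h only A930015D03Rik was at least 2-fold higher, beside 0.145% of all genes tested, and it took place 6. 2410006H16Rik and 5430416N02Rik took places 148 and 146 with the same log2 difference of 0.58, and 0610030E20Rik took place 551 with 0.40. Over all genes the median of this difference was 0.04. The 3 h value of 0610030E20Rik depended on scaling. With TMM factors, which lowered every log2 ratio by 0.175 at 3 h and by 0.286 at 6 h, it was 0.89 and no longer reached 2-fold; the other 3 genes stayed above 2-fold at both times.

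The classes that the annotation gives to these genes were spread unequally over the ratios. The mean behind the 10 CPM floor includes the treated libraries, so genes low in the control could pass because they rose. Its part in the class counts was not tested. With the 4 genes left out, 10 of 36 processed_transcript genes (27.8%) were at least 2-fold above the control at 3 h and 17 (47.2%) at 6 h. Among 48 lincRNA genes the counts were 9 and 11, and among 19 antisense genes 4 and 3. Of 7493 protein_coding genes 4.02% passed at 3 h and 8.29% at 6 h. Median log2 ratios at 6 h were 0.78 for processed_transcript, 0.64 for antisense, 0.28 for lincRNA and 0.16 for protein_coding genes. With TMM factors the medians of the lincRNA and protein_coding classes were -0.01 and -0.12.

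**Figure D2:**
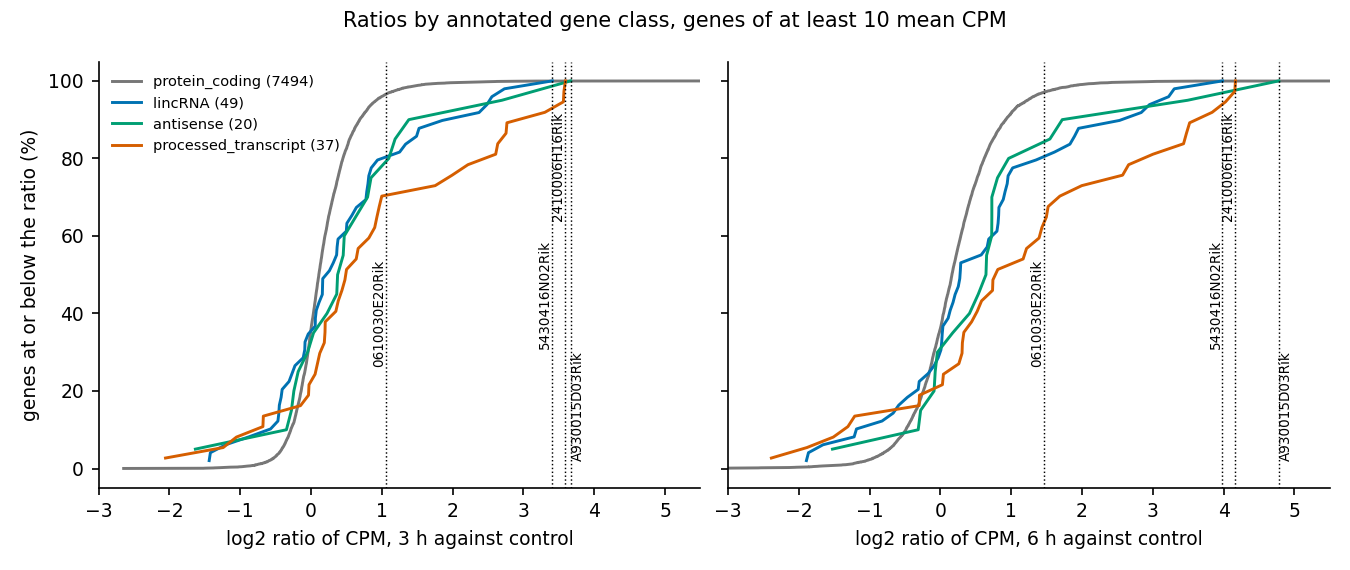
Cumulative share of genes (%) at or below a log2 ratio of CPM, 3 h against control on the left and 6 h against control on the right, for 4 annotated classes with the 4 genes included; dotted lines mark the 4 genes, and the axes leave out the most extreme genes. The processed_transcript curve lies to the right of the protein_coding curve over most of its range, and 3 of the 4 genes sit at or near the right end of their class.

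Among the 106 lincRNA, antisense and processed_transcript genes that passed 10 mean CPM, the 3 noncoding RIKEN-named genes took places 1, 2 and 5 at 6 h. They had been chosen for high ratios, so high places follow from that choice. A930015D03Rik was first, 2410006H16Rik next and 5430416N02Rik at place 5. Between the last pair stood Snhg15 and Zfas1, 2 further snoRNA hosts, with log2 ratios of 4.16 and 4.03. The annotation places a same-strand snoRNA gene in 22 of the 106. With the RIKEN-named genes left out, the median log2 ratios of 21 hosts were 1.75 (3 h) and 2.00 (6 h), and those of 82 genes without a snoRNA were 0.34 and 0.56. At least 8-fold ratios at 6 h were seen in 7 of those 21 hosts and in 3 of those 82 genes. Those 3 genes, Gm13261, 1600020E01Rik and Gm16973, had 3.43, 8.37 and 2.46 CPM in the control. They passed 10 mean CPM only through the treated libraries. Among protein_coding genes such ratios were seen in 14 of 7322 without a snoRNA and in 0 of 172 that hold a snoRNA. A930015D03Rik and 5430416N02Rik hold no annotated snoRNA and had 6 h log2 ratios of 4.78 and 3.98. The highest host, at 4.17, was 2410006H16Rik, another of the chosen genes.

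The 4 genes were also set among the other genes with RIKEN clone names. Of 2526 symbols of this form 130 passed 10 mean CPM. Leaving out the 4 genes, 12 of 126 (9.52%) were at least 2-fold above the control at 3 h and 26 (20.6%) at 6 h, beside 4.32% and 8.65% of all genes. Their median log2 ratios were 0.33 and 0.43, beside 0.11 and 0.17. The highest of the 126 at 6 h were 1600020E01Rik (3.49), an antisense gene, and 1110038B12Rik (3.00), a snoRNA host; both were picked out after their values were seen.

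A list of 24 genes drawn up as noncoding snoRNA hosts, 2410006H16Rik among them, had 23 symbols in the files and 20 genes at 10 mean CPM or more. GENCODE places a snoRNA in 18 of these 20, but not in 1810026B05Rik or Snhg20, and classes Snhg11 as protein_coding. At least 2-fold higher levels were seen in 12 of 20 at 3 h and 12 of 20 at 6 h, beside 4.32% and 8.65% of all genes tested. The 12 include 2410006H16Rik, which was chosen for its ratio. Without it, 11 of 19 were higher at each time. At least 2-fold lower levels were seen in 4 and 5, beside 0.513% and 2.41% of all genes tested. Without 2410006H16Rik the 19 remaining genes had medians of 1.99 (3 h) and 2.57 (6 h) in log2. Snhg15 had 52.2, 618 and 933 CPM in the control, 3 h and 6 h libraries, and Zfas1 had 52.2, 621 and 852 CPM. The lowest hosts were Dancr, with 43.3, 10.4 and 8.27 CPM, Snhg4, with 49.2, 20.8 and 13.3 CPM, and Snhg9, with 20.1, 6.48 and 6.99 CPM. Snhg15, Zfas1 and 2410006H16Rik thus had nearly equal ratios while other hosts went the opposite way.

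**Figure D3:**
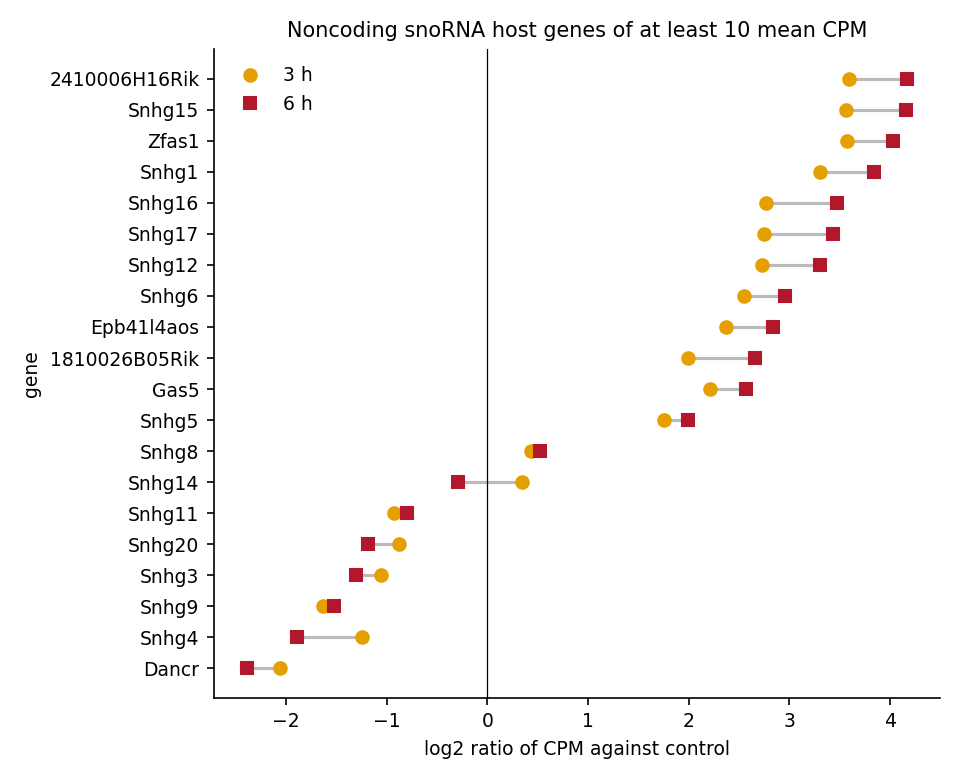
Log2 ratio of CPM against the control for the 20 genes of at least 10 mean CPM from the list of noncoding snoRNA hosts. The 3 h values are circles and the 6 h values squares, ordered by the 6 h value. 2410006H16Rik stands at the top with 3.59 and 4.17, and Dancr at the bottom with -2.06 and -2.39.

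The genes nearest to each of the 4 in the pair of log2 ratios (3 h and 6 h against control) were found among 5569 genes of at least 20 mean CPM, by Euclidean distance over the 3 libraries. For 2410006H16Rik they were Snhg15 (distance 0.03), the histone gene Hist1h2bc (0.13) and Zfas1 (0.14). For 5430416N02Rik they were Zfas1 (0.17), Snhg1 (0.18) and Snhg15 (0.23), all 3 of them snoRNA hosts. 5430416N02Rik had been chosen for its ratio and took place 9 at both times, so few genes could lie near it. A930015D03Rik had no close match: Hist1h2bc stood at 0.57, 2410006H16Rik at 0.62 and Snhg15 at 0.63. For 0610030E20Rik the nearest were the protein-coding genes Tmem222 (0.03), Trmt13 (0.03) and Rsbn1l (0.04). With ratios taken against 1 shared control library, such a distance describes levels and nothing more.

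Genes of the decay machinery were counted in the same way. Of 17 NMD factors at 10 mean CPM or more, 0 were 2-fold higher or lower than the control at either time; over all genes 4.32% and 8.65% were higher and 0.513% and 2.41% lower, so a list of this size shows little. Their median log2 ratios were 0.19 (3 h) and 0.15 (6 h), beside 0.11 and 0.17 over all genes. With TMM factors the 6 h median of the NMD factors was -0.13, beside -0.12 over all genes. Upf2, a core NMD factor, had 36.9, 56.7 and 73.7 CPM, and Upf3a, a partner of it, had 83.1, 70.6 and 62.0 CPM. Upf2 was highest at 6 h and Upf3a lowest there, though mean UMIs per barcode in place of CPM turned the 3 h ratio of Upf3a from -0.23 to 0.04. Of 16 cytoplasmic decay enzymes and cofactors, 1 was 2-fold higher at 6 h: Pnrc2, a decapping cofactor, with 26.8, 50.7 and 62.6 CPM. With TMM factors its 6 h log2 ratio was 0.94, short of 2-fold. Dcp2 and Ttc37, the lowest of this list, had 6 h log2 ratios of -0.805 and -0.799. With TMM factors these were -1.091 and -1.085, past 2-fold lower.

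A list of long noncoding RNAs, most of them known as nuclear, was read beside the 3 noncoding RIKEN-named genes, whose high ratios were the reason for their choice. Of 7 at 10 mean CPM or more, 0 were 2-fold higher at either time, and 1 was 2-fold lower at 3 h and 3 at 6 h; the shares over all genes are those given for the NMD factors. Malat1, a retained nuclear RNA, had 2581, 2716 and 3121 CPM, with log2 ratios of 0.07 and 0.27 that were -0.10 and -0.01 with TMM factors. Neat1, the scaffold of paraspeckles, had 41.8, 15.6 and 11.2 CPM. It was lower in both treated libraries.

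In single barcodes the levels were compared after each barcode had been thinned to 15000 UMIs. A930015D03Rik was seen in 7.13% of control barcodes (exact Clopper-Pearson 95% interval 6.09 to 8.29). Its share was 56.3% (53.9 to 58.6) after 3 h and 82.3% (80.8 to 83.8) after 6 h. Without thinning the shares were 19.9%, 89.4% and 98.0%. It was thus rare in control barcodes and seen in most at 6 h, with median counts of 0, 1 and 2 UMIs.

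2410006H16Rik was seen in 65.2% of thinned control barcodes and in 100% at both times, with no barcode missing it among 1739 and 2554; the lower bounds were 99.8% and 99.9%. Its median count went from 1 to 13 and 19 UMIs. Counts of 10 UMIs and above were found in 0 of 2187 control barcodes, and in 74.3% and 94.6% of the treated ones. At least 5 UMIs were found in 1.10% of control barcodes, 96.6% at 3 h and 99.7% at 6 h. The lower quartiles were 9 UMIs at 3 h and 14 at 6 h, above the control's upper quartile of 2, though the tails of the libraries overlapped. Unthinned, 92.5% of control barcodes had it.

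5430416N02Rik was seen in 22.9% of thinned control barcodes, 92.0% at 3 h and 97.5% at 6 h, and its median counts were 0, 3 and 4 UMIs. Unthinned the shares were 55.8%, 98.9% and 99.9%. 0610030E20Rik was seen in 9.69% (8.48 to 11.0), 18.1% (16.3 to 19.9) and 23.0% (21.4 to 24.7), and in 25.2%, 50.1% and 55.1% unthinned. Its intervals did not overlap between the control and the treated libraries, and its median count was 0 in all 3. All 4 genes were seen together in 1 control barcode, in 160 at 3 h (9.20%) and in 464 at 6 h (18.2%), while barcodes with 0 of them numbered 506, 0 and 0. Such counts depend on the share of barcodes with each gene, and so on the ratios the genes were chosen for. Whether the genes were seen together more often than those separate shares give was not tested.

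**Figure D4:**
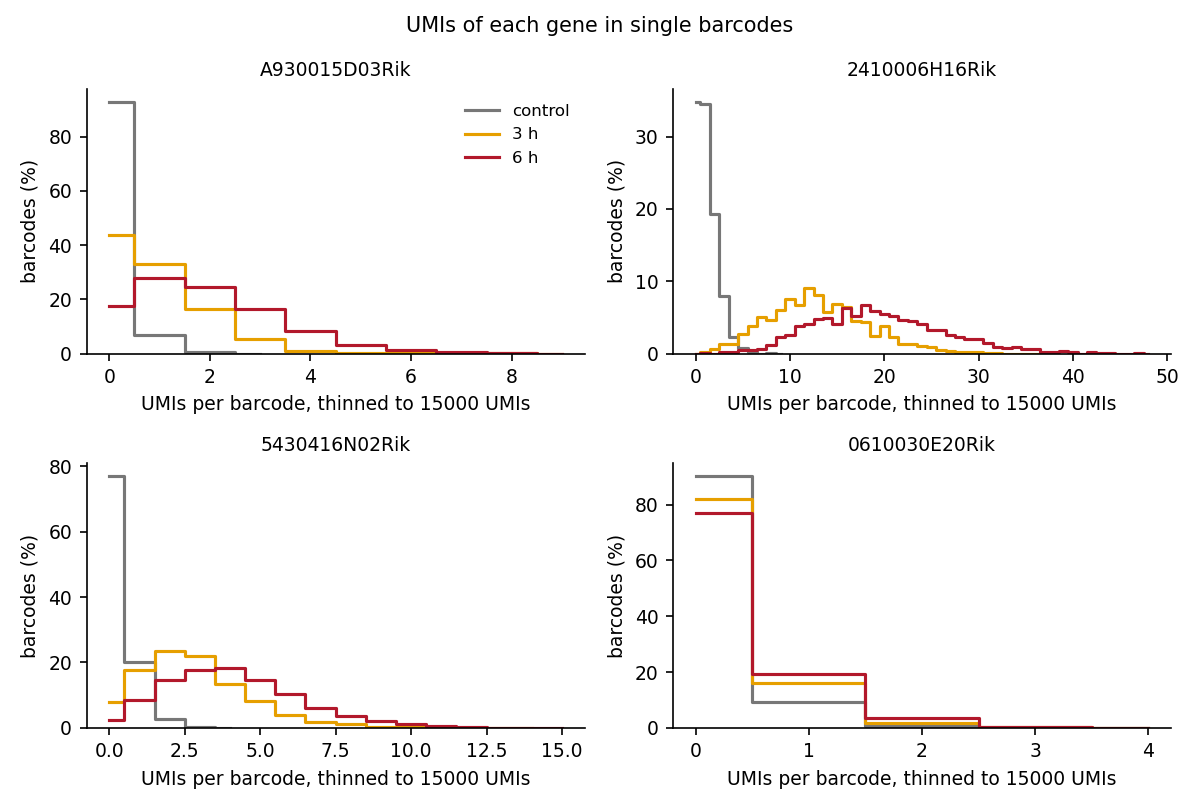
Share of kept barcodes (%) by number of UMIs of each gene after thinning each barcode to 15000 UMIs, for the control, 3 h and 6 h libraries. The 2410006H16Rik curves have medians of 1, 13 and 19 UMIs, and those of 0610030E20Rik lie at 0 to 3 UMIs in all 3 libraries.

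No cell type without these genes was present to give a background share, so free RNA was read from barcodes of 10 to 100 UMIs. There A930015D03Rik had 4.17, 54.8 and 97.9 CPM, 5430416N02Rik 28.1, 158 and 241 CPM, and 0610030E20Rik 10.3, 16.6 and 17.6 CPM. 2410006H16Rik had 127, 803 and 1351 CPM, which is 1.70, 0.89 and 1.01 times its kept-barcode level. Free RNA had the same order of libraries as the kept barcodes for each gene. For 0610030E20Rik this order rested on 37, 55 and 69 UMIs with overlapping intervals, so it was not resolved. Part of the UMIs in single barcodes may come from free RNA, and their share was not measured. Subtracting 10% of each library as free RNA raised the 6 h log2 ratio of 2410006H16Rik to 4.29.

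Spread between barcodes was described by the squared coefficient of variation of thinned counts less its Poisson part, a measure that is 0 for pure counting noise. 2410006H16Rik had 0.115, 0.0873 and 0.0746 in the 3 libraries, and the 200 genes of nearest mean had medians of 0.0709, 0.0361 and 0.0287. It lay above 144, 168 and 169 of those 200 genes. 5430416N02Rik had 0.0734, 0.0658 and 0.0556, and lay above 69, 124 and 133 of its 200. A930015D03Rik went from 0.594 to 0.166 and 0.0843, where the control value rests on few UMIs, and 0610030E20Rik had 0.289, 0.175 and 0.196. These values moved with the settings. Without barcodes above 2 times the median UMIs the control value of 2410006H16Rik was 0.205, that of A930015D03Rik 0.252, and the 6 h value of 0610030E20Rik 0.127. Thinned to 25000 UMIs, the control values of A930015D03Rik, 5430416N02Rik and 0610030E20Rik were 0.204, 0.0309 and 0.142, and the 6 h value of 0610030E20Rik was 0.103. At the main setting all 4 stayed within the 5th to 95th percentile of their comparison genes in each library.

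Across barcodes the thinned counts of the 4 genes moved together little. The 6 pairs among them had Pearson's r from -0.03 to 0.17 at 6 h, with 2410006H16Rik and 5430416N02Rik highest at 0.175 (Spearman 0.17) and at 0.149 at 3 h. Over 2937 genes of at least 50 CPM, the genes with the highest r to 2410006H16Rik at 6 h were 1110038B12Rik (0.491), Snhg1 (0.470), Gas5 (0.454), Zfas1 (0.358), Snhg12 (0.341) and the histone gene Hist1h2ap (0.311), found after the values were seen. The first 5 hold an annotated snoRNA and Hist1h2ap does not, beside 3.98% of the 2937 genes. At 3 h Hist1h2ap was at place 4 with 0.344. In the control the highest r of 2410006H16Rik with any gene was 0.13, at a median of 1 UMI. 5430416N02Rik, which holds no snoRNA, had its highest r at 6 h with Snhg1 (0.191), Gas5 (0.191) and 2410006H16Rik (0.175), all of them weak. For A930015D03Rik the highest r at 6 h was 0.13, and for 0610030E20Rik 0.08. The points of each r share a library, and low counts add sampling noise to each.

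2410006H16Rik and 5430416N02Rik also varied with barcode size. Barcodes were put in 4 equal bins by UMIs. From the smallest to the largest bin 2410006H16Rik had 753, 885, 941 and 925 CPM at 3 h, and 1143, 1297, 1427 and 1373 CPM at 6 h. In the control its 4 bins lay between 73.4 and 75.4 CPM. The smallest barcodes were thus lowest in both treated libraries and level with the rest in the control. 5430416N02Rik had 177, 188, 191 and 193 CPM at 3 h and 254, 267, 294 and 293 CPM at 6 h, again lowest in the smallest barcodes. At both times the counting interval of its smallest bin overlapped that of the next bin. Its control ran the other way, with 20.14, 18.35, 16.75 and 17.64 CPM, where the intervals of the smallest and next bins also overlapped. A930015D03Rik showed no such order, with 131, 126, 125 and 129 CPM at 6 h. 0610030E20Rik was highest in the smallest barcodes of the control, 3 h and 6 h libraries, at 7.561, 14.77 and 19.39 CPM. In each library the interval of that bin overlapped the interval of the next. Every bin of the treated libraries lay above every control bin for the 4 genes.

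Neighbours of the 4 genes on the chromosome were read beside them. The counted genes that overlap a member, with the 3 nearest on each side, made 28, of which 8 passed 10 mean CPM. Of these 8, beside the all-gene shares of 4.32% and 8.65%, 0 were at least 2-fold above the control at 3 h, and 1 was so at 6 h. That gene was Prr3, and with TMM factors its 6 h log2 ratio was 0.78, short of 2-fold. The log2 ratios of the 8 ran from -0.28 to 0.88 at 3 h and from -0.69 to 1.07 at 6 h. Since the 4 genes were chosen for high ratios, their distance from these neighbours was not tested. None of the 28 starts on the other strand within 1000 bases of the start of any of the 4.

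Beside A930015D03Rik, Prr3 had 18.9, 34.8 and 39.8 CPM and, among the 8 neighbours of at least 10 mean CPM, the highest ratio at 6 h. Gnl1, a GTPase gene, had 41.9, 48.7 and 59.9 CPM. H2-T22, whose exons cover exon 2 of A930015D03Rik on the other strand, had 41, 27 and 34 UMIs in all, H2-T23 had 74, 55 and 95, and H2-T24 had 4, 1 and 3. The counts of the antisense gene were thus many times higher under cycloheximide while those of its sense partner were few in all 3 libraries. Whether reads were counted by strand is not given in the sources used here, so reads of A930015D03Rik exon 2 and of H2-T22 may not have been told apart.

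Beside 2410006H16Rik, Ubb, a polyubiquitin gene, had 1848, 1526 and 1147 CPM and was lowest at 6 h. Lrrc75a runs towards it on the other strand, with its 3' end 77 bases past that of 2410006H16Rik. It had 131, 247 and 729 UMIs, a 4.41-fold ratio to the control at 6 h (log2 2.14, 1.87 to 2.42). Lrrc75aos2 lies 959 bases past its end on the same strand and had 362, 102 and 58 UMIs. These 2 genes were under 10 mean CPM and are named because they lie so close; their order over the libraries was opposite. The counts of Lrrc75aos2 were lowest where 2410006H16Rik was highest.

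Beside 5430416N02Rik, Sec31a, a coat protein gene of vesicles leaving the endoplasmic reticulum, had 65.0, 55.9 and 53.2 CPM. Its 3 h log2 ratio of -0.22 was 0.05 by mean UMIs per barcode. Lin54, a gene of the cell-cycle DREAM complex, had 11.1, 14.1 and 16.2 CPM. Cops4, a subunit of the COP9 signalosome, had 116, 116 and 131 CPM, and its 6 h log2 ratio of 0.17 was -0.11 with TMM factors. All 3 stayed within 2-fold of the control. The 4 short misc_RNA models Gm27286, Gm27553, Gm27997 and Gm28030 lie on the other strand wholly within exons of 5430416N02Rik. They are not among the genes counted in the files and so not among the 28.

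Beside 0610030E20Rik, Usp39, a splicing factor gene, had 68.9, 73.0 and 77.4 CPM, with log2 ratios of 0.08 and 0.17 that were -0.09 and -0.12 with TMM factors. Rnf181, a ubiquitin ligase gene, had 39.2, 51.4 and 71.8 CPM, a log2 ratio of 0.87 at 6 h. The antisense gene Gm45051 shares 675 exon bases with 0610030E20Rik and had 475, 719 and 982 UMIs, beside 684, 1370 and 2369 for 0610030E20Rik. Both genes of this pair were higher in the treated libraries, and their reads may not have been told apart.

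**Figure D5:**
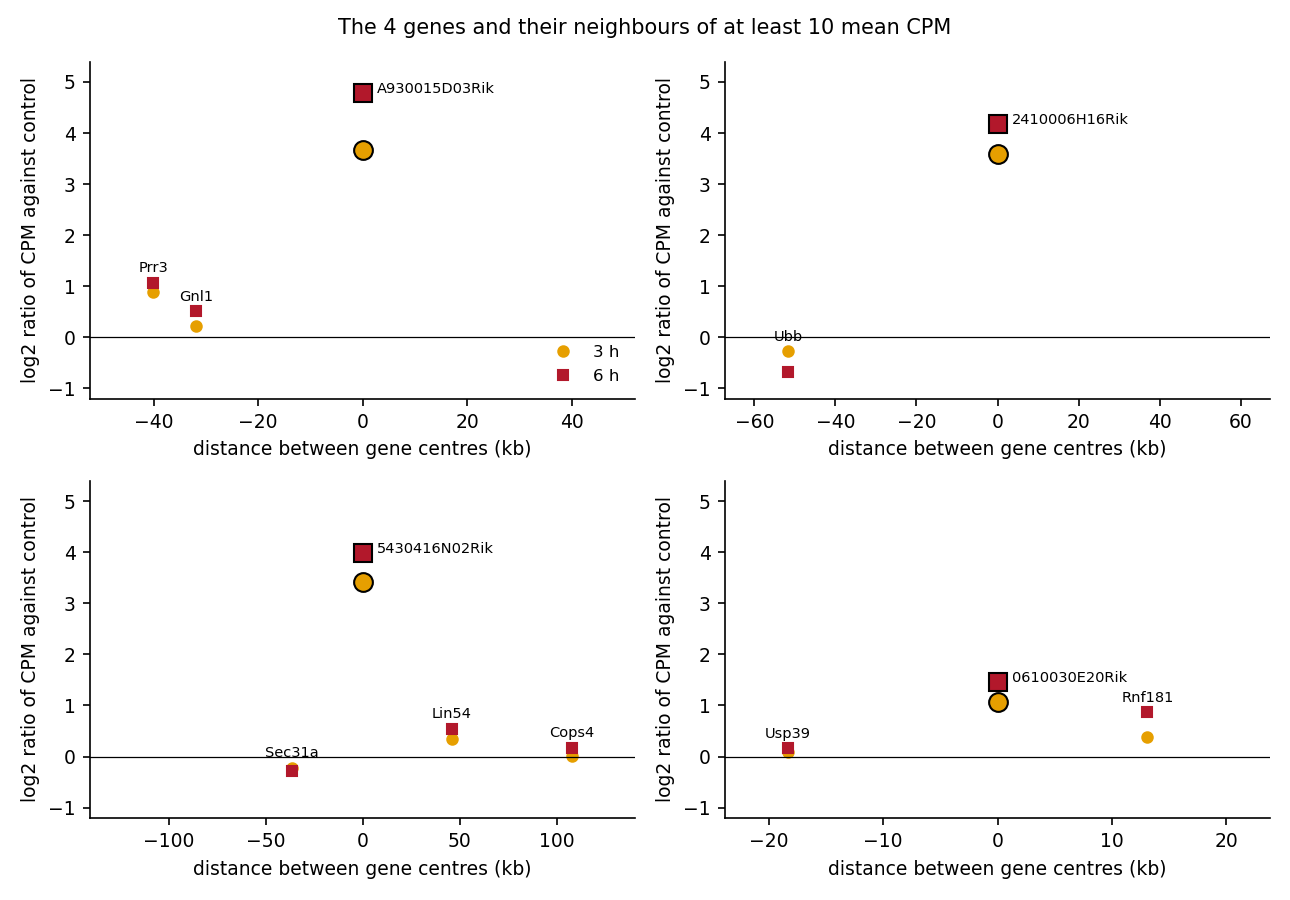
Log2 ratio of CPM against the control for each of the 4 genes (large outlined symbols at distance 0) and for its neighbours of at least 10 mean CPM, by distance between gene centres in kb; circles are 3 h and squares are 6 h. The neighbours lie between -0.69 and 1.07, below the gene at the centre of each panel.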

How the data were processed

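Single-cell RNA libraries from 3 cultures of E14 cells were used, 1 each for control, 3 h and 6 h. The authors deposited raw UMI counts, in matrices that name Cell Ranger in their headers. The submitters' processing notes name Cell Ranger 4.0.0 and mm10. The annotation release and the use of strand in counting are not given in the sources used here. Matrices listed 6794880 barcodes each, so cells had not been called. Of 32285 gene identifiers, 32235 matched GENCODE M21 (GRCm38), which gave positions and classes.

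The members and gene lists were chosen with earlier results of these data known. Barcodes with at least 15000 UMIs and 1 to 20% mitochondrial UMIs were kept, and 62 control barcodes, 1 at 3 h and 8 at 6 h fell under 1%. UMIs were summed per library and scaled to CPM by the library total. For log2 ratios 0.5 counts were added. Poisson, conditional binomial and Clopper-Pearson intervals are exact, at 95%, and cover counting error only. Class counts used genes of at least 10 mean CPM. No doublet caller was run, so doublets remain; an alternative left out barcodes above 2 times the median UMIs. Thinning drew UMIs without replacement. Named genes were the 4 members, neighbours of at least 10 mean CPM, the 3 nearest by ratios, and up to 6 from each list, the highest and lowest at 6 h. Neighbours below that level, correlates across barcodes and promoter motifs were picked after values or sequences were seen. Reading frames and motifs were found in the GENCODE transcripts and RefSeq promoters. Alternatives covered TMM factors (edgeR 4.0.16, R 4.3.3), equal weight per barcode, mean UMIs per barcode, other UMI minimums, no mitochondrial limit, free RNA, the prior, the floor and the fold. The counting code was tested on simulated data. Python 3.11.15, numpy 2.4.6, scipy 1.17.1 and pandas 2.3.3 were used.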

Additional observations from a re-analysis of the deposited data

Results flagged for a closer look

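Smg8, an NMD factor, had 19.6, 21.6 and 15.6 CPM in the control, 3 h and 6 h libraries. Its log2 ratios to the control were 0.14 (3 h) and -0.34 (6 h), so it stood on opposite sides of the control at the 2 times, with a log2 difference of -0.47 between 6 h and 3 h. With TMM factors the 3 h ratio was -0.04, and the change of side was gone. Snhg14, a listed snoRNA host, had 15.8, 20.1 and 12.8 CPM. Its ratios were 0.35 (3 h) and -0.29 (6 h) in log2, with -0.65 between them, and it was on opposite sides under each scaling tried. Neither difference was tested, as there was 1 library per time.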

How the results depend on the processing

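All 12 log2 ratios of the 4 genes (3 h against control, 6 h against control, 6 h against 3 h) stayed above 0 under every alternative. They stayed within their counting intervals with minimums of 10000 or 25000 UMIs, a prior of 5 counts and without barcodes above 2 times the median UMIs. In the order A930015D03Rik, 2410006H16Rik, 5430416N02Rik and 0610030E20Rik, TMM factors gave 3.49, 3.42, 3.23 and 0.89 at 3 h, 4.50, 3.88, 3.70 and 1.17 at 6 h, and 1.00, 0.46, 0.47 and 0.29 between 6 h and 3 h. Mean UMIs per barcode gave 3.94, 3.86, 3.68 and 1.33 at 3 h, 4.28 for 2410006H16Rik and 4.09 for 5430416N02Rik at 6 h, and 0.95, 0.41, 0.41 and 0.23 between them. With no mitochondrial limit 2410006H16Rik had 3.54 and 4.11. Subtracting 10% free RNA gave 2410006H16Rik 3.73, 4.29 and 0.56, and 5430416N02Rik 3.53 and 4.11. Equal weight per barcode gave 2410006H16Rik 3.54 and 4.12, and 5430416N02Rik 3.92 at 6 h. Genes at least 2-fold above the control numbered 329 at 3 h and 658 at 6 h. They were 81 and 164 with a floor of 50 mean CPM, 4062 and 6614 with no floor, 50 and 90 at a fold of 4, and 220 and 356 with TMM factors. TMM factors also moved the share of higher genes among those past 2-fold either way from 89.4% to 77.5% at 3 h and from 78.2% to 47.4% at 6 h. Shares of barcodes with a UMI moved with depth in 10 of 12 cases, both unthinned and thinned to 25000 UMIs. With 1 library per group, nothing here measures the spread between cultures.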

Other observations

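Leaving the kept barcodes aside, 62 control barcodes had at least 15000 UMIs and under 1% mitochondrial UMIs, with 6357765 UMIs in all. In them 2410006H16Rik stood at 131 CPM (95% counting interval 122 to 140) beside 74.7 CPM in the kept control barcodes. A930015D03Rik had 4.72 beside 4.64 CPM and 5430416N02Rik 19.03 beside 17.9 CPM, both within counting error of the kept barcodes. 0610030E20Rik had 1.26 CPM (0.54 to 2.48), from 8 UMIs, beside 6.14 CPM. Malat1, a nuclear RNA, had 262 beside 2581 CPM, while Gas5, a cytoplasmic snoRNA host, had 183 beside 174 CPM and Actb 3078 beside 2402 CPM. The ratio of 2410006H16Rik to the control is therefore lower when these barcodes count as control cells. These genes and barcodes were picked after their values were seen.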
